A study of Mus musculus with 8 samples.

Results

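Circular RNAs (circRNAs) are closed loops, formed where the donor site of an exon is joined to the acceptor site of the same or an upstream exon. In this study they were sequenced from hearts of male wild-type mice after transverse aortic constriction (TAC), an operation that narrows the aortic arch and loads the left ventricle with pressure, and after a sham operation. Each group held 4 mice with 1 library each, all with tissue taken 8 weeks after surgery. The labels give no strain, no age and no part of the heart, and all mice carried the wild-type genotype. The circles described here come from genes of the extracellular matrix and of transforming growth factor beta (TGF-beta) signalling. They were taken by gene name: collagens, ADAM and ADAMTS proteases, laminins without Lama2, latent TGF-beta binding proteins (Ltbp), fibrillins, fibulins, lysyl oxidase-like genes (Loxl), Tgfb genes and Smads. The rule found 298 circles of 64 host genes, out of 27391 circles of 6492 hosts in the whole table. GENCODE M21 lists 145 protein-coding genes whose names match, so 81 of them had no circle in the table. One matching name belongs to no matrix gene: Col4a3bp encodes the ceramide transfer protein, and its 5 circles held 8 reads.

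TGF-beta is secreted in a latent complex that is tethered to the matrix by latent TGF-beta binding proteins and fibrillins. Once freed, it binds a pair of receptor kinases, Tgfbr2 and Tgfbr1, which phosphorylate the receptor Smads Smad2 and Smad3, while receptors of bone morphogenetic proteins (BMPs) act on Smad1 and Smad5. Smad4 is the partner that both branches share on the way to the nucleus. In the heart the pathway is known for turning fibroblasts into matrix-producing cells under pressure load, and ADAM and ADAMTS proteases, collagens and laminins build and remodel the matrix around cardiomyocytes and vessels. A back-spliced read counts the circle of a host gene, not its messenger RNA, so none of the values below measures how much of a matrix protein's transcript was present.

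The only sequence that a circle does not share with its linear transcript is its junction. The junctions of 11 circles are given here: Adam10 exons 2 to 4, which edgeR called, circles that lead the reads of the Ltbp, receptor, laminin and collagen hosts described below, and sets of Ltbp1 and Adamts6 circles that share 1 end. Smad circles are described below without their junctions. Each was read from the GENCODE M21 transcript of the host, with positions on mm10 counted from 1. Lower case marks the last 15 bases of the circle's last exon, and capitals mark the first 15 bases of its first exon, read 5′ to 3′.
Adam10 exons 2 to 4, chr9:70703287-70722771, plus strand: atgaagatgatattaGTCAGTATGGAAATC
Ltbp4 exons 23 to 24, chr7:27310181-27310787, minus strand: tgagtgcccggagagGCACGTTCCCTGGCT
Ltbp1 exons 14 to 19, chr17:75282328-75296343, plus strand: atggacaatgccttgGAAATACCTTCACTG
Ltbp1 exons 11 to 19, chr17:75273867-75296343, plus strand: atggacaatgccttgCGGATCCCCCTGTGA
Adamts6 exons 10 to 14, chr13:104366794-104400006, plus strand: tcttgcaacacagatTTTTGGTATGAACCA
Adamts6 exons 11 to 14, chr13:104375642-104400006, plus strand: tcttgcaacacagatTTCAGGCCGTGGTAC
Adamts6 exons 12 to 14, chr13:104390078-104400006, plus strand: tcttgcaacacagatGAAGTGTGTAGAGAG
Tgfbr2 exons 3 to 4, chr9:116129816-116131713, minus strand: tcatcttttcggaagTTAACAGTGATGTCA
Tgfbr1 exons 2 to 4, chr4:47383749-47396585, plus strand: cagcagacaacaaagCATTACAGTGTTTCT
Lamc1 exons 17 to 18, chr1:153239255-153240495, minus strand: ctcaggaagtcaaagCTTGTGACTGTCACC
Col4a2 exons 28 to 29, chr8:11427553-11429528, plus strand: caccgggattcagagGTGCCAAAGGCGTCA

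All 11 of these circles lie wholly in coding sequence. The 3 Adamts6 junctions share their lower-case part, the end of exon 14, and differ in the exon that it is joined to, and the same holds for both Ltbp1 junctions at the end of exon 19. GC content of the spliced circles ran from 36.4% in Adam10 exons 2 to 4 to 64.9% in Ltbp4 exons 23 to 24.

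Depth was uneven. Libraries held 33132, 1119, 21074 and 36120 back-spliced reads in TAC replicates 1 to 4, against 40796, 3963, 17890 and 100142 in sham replicates 1 to 4. Values below are normalised reads (reads divided by 1 size factor per library) unless they are called reads, and neither is scaled by circle length. Numbers of reads are not adjusted for depth, so equal numbers in both groups do not mean equal levels. In TAC replicate 2, 3 reads, the number that a count of 0 still allows, are worth 17.3 normalised reads, and in sham replicate 2 they are worth 13.6, so a 0 in either library carries little information. Sham replicate 4 stands apart in another way: it had 17.9 reads per circle seen, against 1.97 to 4.49 in the other 7 libraries. The summed circles of 12 of 15 cardiomyocyte marker genes ran from 318 to 1819 normalised reads in TAC hearts and from 244 to 886 in sham hearts. Circles of 7 of 15 fibroblast marker genes summed to 0 to 2.97 in TAC hearts and 1.66 to 4.54 in sham hearts, with Postn, Fn1, Tcf21, Lum and 4 others absent, and 3 of the 7, Col1a1, Col1a2 and Col3a1, are also among the matrix hosts here. In tissue RNA, fewer cells of a type and fewer circles per cell cannot be told apart.

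Matrix and TGF-beta circles held 1993 back-spliced reads in all, 867 in TAC and 1126 in sham hearts. They made up 1.02%, 0.536%, 1.06% and 0.831% of all reads in TAC replicates 1 to 4, against 0.706%, 0.681%, 0.805% and 0.666% in sham replicates 1 to 4. The TAC libraries of over 5000 reads were the 3 highest of all 8, and TAC replicate 2, with 6 such reads (95% Wilson interval 0.246% to 1.16%, counting error only), was the lowest. Summed normalised values averaged 177 ± 97.9 in TAC hearts and 120.2 ± 8.55 in sham hearts (SD, n = 4 each). Without the shallow TAC replicate 2 and sham replicate 2 the groups did not overlap, at 191 to 251 in TAC hearts and 109 to 130 (129.8) in sham hearts. Sums over all circles of the table did not overlap in these libraries either, at 21691 to 24636 in TAC hearts and 14814 to 19483 in sham hearts. Cardiomyocyte marker circles were higher in the same 3 TAC libraries, at 1241 to 1819 normalised reads, against 244 to 378 in the 3 sham libraries. Summed circles of 13 of 13 endothelial markers were higher there too, at 40.2 to 68.0 against 20.1 to 33.1. By limma over 8 libraries, 4 of the 8 endothelial hosts tested had a positive log2 fold change and 4 a negative one. The sum of 4 of 11 smooth muscle and pericyte markers was also higher in the 3 TAC libraries, at 12.4 to 22.9 against 8.28 to 11.1. Sums of 7 of 11 leukocyte markers overlapped (25.7 to 40.7 against 14.4 to 33.3). Those of 7 of 15 fibroblast markers did as well (0.636 to 2.97 against 1.66 to 3.70). Over all 8 libraries each of these lists overlapped between groups, and their part in the difference was not tested.

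Most of these circles were rare. Of the 298, 200 were seen in 1 library and 162 rested on a single read, 54.4% of them against 46.5% of all circles in the table. In at least 4 libraries 40 were seen, and none was seen in all 8. The 5 hosts with the most reads, Smad4 (528), Ltbp1 (218), Adam10 (179), Smad1 (127) and Adamts6 (115), each gave 7 to 24 circles, against a median of 4 per matrix host. At the other end, 18 hosts had fewer than 5 reads in all 8 libraries together.

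By family, the 25 Smad circles of 5 hosts held 702 reads, 35.2% of the total, and the 53 ADAM circles of 7 hosts held 349. The 23 Ltbp circles held 292, the 82 ADAMTS circles of 14 hosts 270, the 57 collagen circles of 17 hosts 148, the 24 laminin circles 91 and the 17 Tgfb circles 74. Fibrillins (44), fibulins (20) and Loxl1 (3) followed. Collagens thus had many hosts and few reads: 50 of their 57 circles were seen in 1 library only.

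**Figure D1:**
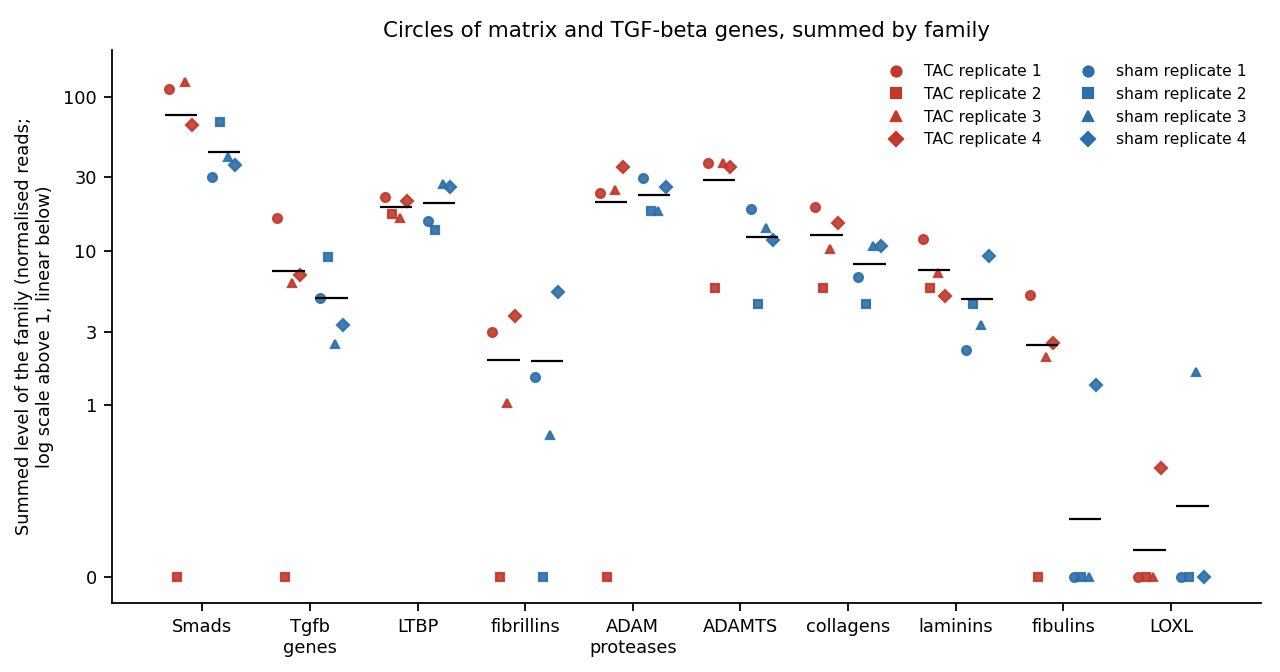
Summed level of each family in normalised reads per library (log scale above 1, linear below), TAC in red and sham in blue, with a marker shape for each replicate and a black line for the group mean. Smad and ADAMTS circles reached 125 and 37.2 normalised reads in TAC hearts; TAC replicate 2 (red square) lies at 0 in 6 families, and the groups overlap in all 10.

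No host or circle of the set passed the main test. limma, fitted over all circles seen in at least 4 of 8 libraries with Benjamini-Hochberg adjustment, called 0 of 40 matrix and TGF-beta circles, against 0.0268% of all circles tested (1 of 3735), with 2 at an unadjusted p under 0.05. Over host sums it called 0 of 34, against 0.0337% of all hosts tested (1 of 2967), and 1 of the 34 had an unadjusted p under 0.05. The median log2 fold change (TAC over sham) of the circles was 0.14, against 0.15 over all circles, and that of the hosts was 0.79, against 0.13 over all hosts. Of the 34 hosts 22 had a positive value and 12 a negative one. edgeR's quasi-likelihood test on the reads called 1 of 7 circles, where it called 13.1% of all circles, and 0 of 9 hosts, where it called 8.24%. Groups overlapped in all 40 circles and in all 34 hosts, while 3.11% of all circles tested and 3.24% of all hosts tested had groups that did not overlap.

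The calls depended on the 2 shallow libraries, which held under 5000 reads each. The other 6, 3 per group, are called deep below. With TAC replicate 2 and sham replicate 2 left out, limma called 8 of 39 circles (20.5%), 7 higher and 1 lower in TAC, where 11.6% of all circles were called. The 7 were 5 circles of Smad4, the Smad1 exon 2 circle and the Adamts9 exons 2 to 6 circle, and the 1 lower was Adam10 exons 2 to 4. Among hosts it called 3 of 33 (9.09%), Smad4, Smad1 and Adamts9, all higher in TAC, where 12.4% of all hosts were called. In these 6 libraries the groups did not overlap in 12 of 39 circles (30.8%) and 10 of 33 hosts (30.3%), shares near those of all circles (33.8%) and all hosts (32.5%). Circle length moved with the groups in the same libraries. Once the trend of each of the 6 libraries with spliced length had been removed, limma called 1 of the 39 circles, Adam10 exons 2 to 4, where 5.89% of all circles were called. Length was not corrected for in host sums, including those of Smad4, Smad1 and Adamts9.

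The length difference can be read directly from the set. Circles over 700 nt held 28.8%, 16.7%, 30.5% and 26.3% of its reads in TAC replicates 1 to 4, against 9.03%, 33.3%, 9.03% and 5.40% in sham replicates 1 to 4. The deep TAC libraries and sham replicate 2 were high, the other 3 sham libraries low, and TAC replicate 2, with 6 reads of the set, lay between them. The groups overlapped through sham replicate 2. All circles of the table showed the same order in the deep libraries, with 33.2%, 28.7% and 26.4% of reads in TAC replicates 1, 3 and 4, against 9.10%, 8.07% and 7.01% in sham replicates 1, 3 and 4. The circle length reached at the median read of the set was 582 nt in TAC replicates 1, 3 and 4, the length of the main Smad4 circle, against 429 nt in sham replicates 1, 3 and 4, the length of the main Adam10 circle.

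**Figure D2:**
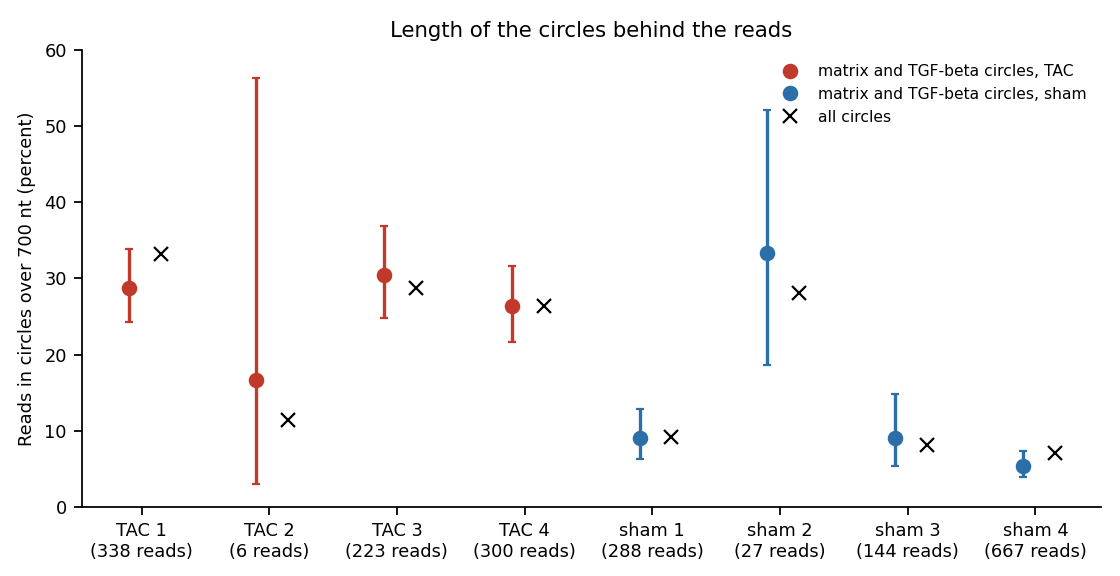
Percentage of back-spliced reads in circles over 700 nt per library: filled points are matrix and TGF-beta circles with 95% Wilson intervals (counting error only), crosses are all circles of the table. TAC replicates 1, 3 and 4 lie between 26.3% and 30.5%, sham replicates 1, 3 and 4 between 5.40% and 9.03%, and sham replicate 2, with 27 reads, at 33.3%.

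Among the ligands, Tgfb1, the main isoform studied in cardiac fibrosis, had 2 circles with 16 reads, of which 1 came from TAC hearts (replicate 4) and 15 from sham hearts (4 in replicate 1 and 11 in replicate 4). It was seen in too few libraries to be tested. Tgfb2 had 1 read in each group, and no circle of Tgfb3 was in the table.

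Ltbp1, which binds latent TGF-beta to the matrix, gave 18 circles, all in coding sequence, and was the one host seen in all 8 libraries. Its host sum was 16.4, 5.77, 13.4 and 14.0 normalised reads in TAC replicates 1 to 4, against 12.5, 13.6, 9.11 and 22.0 in sham replicates 1 to 4. The lowest and the highest value came from the shallowest TAC and the deepest sham library, and the groups overlapped widely (limma log2 fold change -0.23 ± 1.13, SE). Exons 14 to 19, its largest circle with 44.0% of its reads, held 5, 0, 6 and 5 reads in TAC replicates 1 to 4 and 19, 0, 1 and 60 in sham replicates 1 to 4. The longer circle that ends at the same exon 19 but starts at exon 11, shown above, held 3, 0, 1 and 1 reads in TAC hearts and 1, 0, 0 and 0 in sham hearts. Exons 6 to 7 were spread more evenly, with 7, 1, 3 and 9 reads in TAC hearts and 3, 0, 8 and 26 in sham hearts. The circle of exon 3 alone held 1, 0, 1 and 0 reads in TAC hearts and 3, 2, 0 and 15 in sham hearts.

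Ltbp4, another binding protein, had 55 of its 69 reads in the circle of exons 23 to 24. That circle held 6, 2, 2 and 9 reads in TAC replicates 1 to 4 and 8, 0, 18 and 10 in sham replicates 1 to 4. Sham replicate 3 was the highest, and the groups overlapped. Ltbp2 had 5 reads. Fibrillins form the microfibrils to which the binding proteins attach: Fbn1 held 8 reads in TAC hearts and 9 in sham hearts over 7 circles. The exons 5 to 7 circle of Fbn2 held 1, 0, 0 and 1 reads in TAC replicates 1 to 4 and 2, 0, 0 and 21 in sham replicates 1 to 4, so nearly all of it came from sham replicate 4.

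Of the receptors, Tgfbr2, the kinase that binds the ligand first, had a circle of exons 3 to 4 (360 nt) with 33 of its 40 reads. It held 10, 0, 2 and 5 reads in TAC replicates 1 to 4 and 6, 1, 3 and 6 in sham replicates 1 to 4, in overlapping groups. Tgfbr1, the signalling partner, had 7 reads in TAC hearts (2, 0, 3 and 2) and 1 in sham hearts, in replicate 1. In normalised reads it averaged 1.46 ± 1.27 in TAC hearts and 0.0948 ± 0.190 in sham hearts (SD, n = 4 each); the groups overlapped at the 0 of TAC replicate 2, and 3 reads in TAC replicate 2 would exceed every other value. Tgfbr3, the co-receptor betaglycan, had 3 reads, and Tgfbrap1, a receptor-associated protein, had 5.

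Smad4 held more reads than any other host of the set, 282 in TAC hearts and 246 in sham hearts. Its host sum was 94.4, 0, 91.6 and 42.0 normalised reads in TAC replicates 1 to 4, against 20.1, 59.1, 33.9 and 27.0 in sham replicates 1 to 4. TAC replicates 1 and 3 were the highest of the 8, TAC replicate 2 had no Smad4 read, and sham replicate 2, at 13 reads, was the highest sham library. limma gave a log2 fold change of -0.99 ± 0.91 (SE) over all 8 libraries with Benjamini-Hochberg adjusted p = 0.9995, and edgeR's quasi-likelihood test gave 0.56 ± 0.61 with adjusted p = 0.626. The direction thus depended on the test, and limma without TAC replicate 2 alone gave 1.14 ± 0.43 (adjusted p = 0.192). Without TAC replicate 2 and sham replicate 2, Smad4 averaged 76.0 ± 29.5 in TAC hearts and 27.0 ± 6.93 in sham hearts (SD, n = 3 each), and limma's value was 1.43 ± 0.35 (adjusted p = 0.00245).

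**Figure D3:**
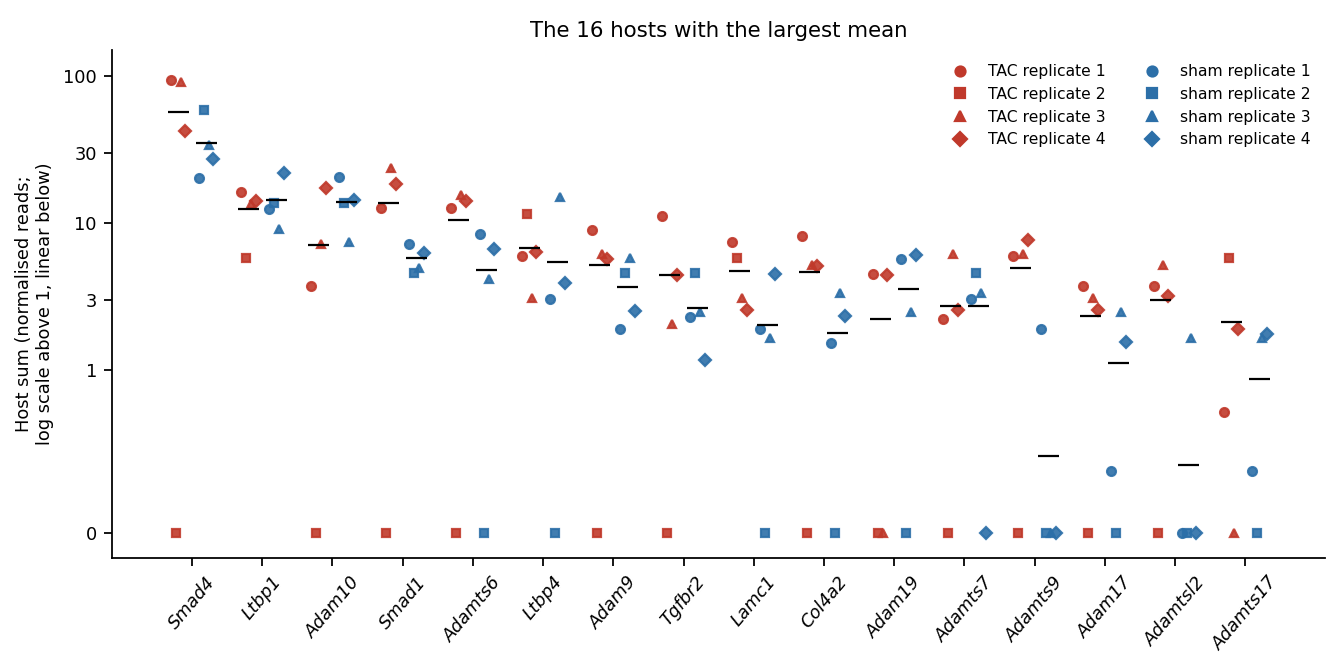
Host sums in normalised reads per library (log scale above 1, linear below) for the 16 hosts with the largest mean, TAC in red to the left of sham in blue, with a marker shape for each replicate and black lines for group means. Smad4 stands above all other hosts at up to 94.4 in TAC and 59.1 in sham hearts, and the red squares at 0 are TAC replicate 2, with 1119 reads in all.

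The 10 Smad4 circles used 5 start exons and 5 end exons, and 9 of them shared an end with another. Exons 2 to 4 (582 nt) made up 49.6% of the host's reads; this circle holds 128 nt of 5′ untranslated sequence and the start codon. It reached 46.8, 0, 50.4 and 21.0 normalised reads in TAC replicates 1 to 4, against 10.2, 9.09, 24.8 and 11.3 in sham replicates 1 to 4. TAC replicates 1 and 3 were above all sham libraries, and sham replicate 3 lay above TAC replicate 4. limma over 8 libraries gave -0.38 ± 1.23 (SE). Over the 6 deep libraries it gave 1.36 ± 0.42 with Benjamini-Hochberg adjusted p = 0.0181, and 0.15 ± 0.43 with adjusted p = 0.891 once the length trend was removed as well.

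Smad4 exons 5 to 8 (498 nt, coding) held 18, 0, 14 and 11 reads in TAC replicates 1 to 4 and 5, 5, 3 and 22 in sham replicates 1 to 4. The deep TAC libraries lay above sham replicates 1, 3 and 4, and sham replicate 2, where a read weighs most, was the highest of all in normalised reads, at 22.7. limma gave -0.26 ± 1.51 (SE) over 8 libraries, and in the 6 deep ones 1.94 ± 0.63 with adjusted p = 0.0233, or 1.01 ± 0.62 with adjusted p = 0.370 without the length trend. The longest circle, exons 2 to 10 (1433 nt), held 10, 0, 4 and 4 reads in TAC replicates 1 to 4, against 1, 0, 0 and 0 in sham replicates 1 to 4. It was at 0 in TAC replicate 2 and otherwise above every sham library. Its log2 fold change by limma was 3.005 ± 1.40 (SE, unadjusted p = 0.032), and in the 6 deep libraries it was 4.01 ± 1.27 with adjusted p = 0.0197, or 1.39 ± 1.19 with adjusted p = 0.536 without the length trend.

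Other circles of Smad4 were rarer. Exons 2 to 5 (792 nt) held 13, 0, 4 and 3 reads in TAC replicates 1 to 4, against 1, 1, 0 and 0 in sham replicates 1 to 4. Exons 2 to 8 (1080 nt) held 13, 0, 8 and 2 reads in TAC hearts and 0, 4, 2 and 0 in sham hearts. Both were called in the 6 deep libraries, as counted above, and neither passed limma over 8 libraries. Exons 5 to 10 (851 nt) held 5, 0, 7 and 7 reads in TAC hearts and 4, 0, 0 and 7 in sham hearts, with adjusted p = 0.0521 by limma in the 6 deep libraries.

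Circles that start at exon 2 and run past exon 4 were compared as a share of all Smad4 reads in each library, which does not depend on the size factors. They made up 28.3%, 17.98% and 13.6% in TAC replicates 1, 3 and 4, against 3.77%, 38.5%, 4.88% and 0% in sham replicates 1 to 4. The deep TAC libraries were above sham replicates 1, 3 and 4, and sham replicate 2, with 5 of 13 reads (95% Wilson interval 17.7% to 64.5%), was above them all. The circles counted are 792, 1080 and 1433 nt long. Over the whole table, circles over 700 nt also held more of the reads in TAC replicates 1, 3 and 4, at 33.2%, 28.7% and 26.4%. Sham replicates 1 to 4 stood at 9.10%, 28.1%, 8.07% and 7.01%. Whether the Smad4 share differed beyond this length difference was not tested. Of the short circles, exons 6 to 8 (288 nt) held 9 reads in TAC hearts and 42 in sham hearts. Sham replicate 4 gave 32 of the 42. In normalised reads that was 1.49, 0, 2.06 and 3.18 in TAC replicates 1 to 4. Sham replicates 1 to 4 stood at 3.03, 4.54, 0.828 and 6.23. Exons 9 to 10 (353 nt) held 4 reads in TAC hearts and 31 in sham hearts. Their normalised reads were 1.49, 0, 1.03 and 0.636 in TAC hearts, against 2.28, 0, 4.14 and 3.89 in sham hearts. The groups overlapped for both circles.

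**Figure D4:**
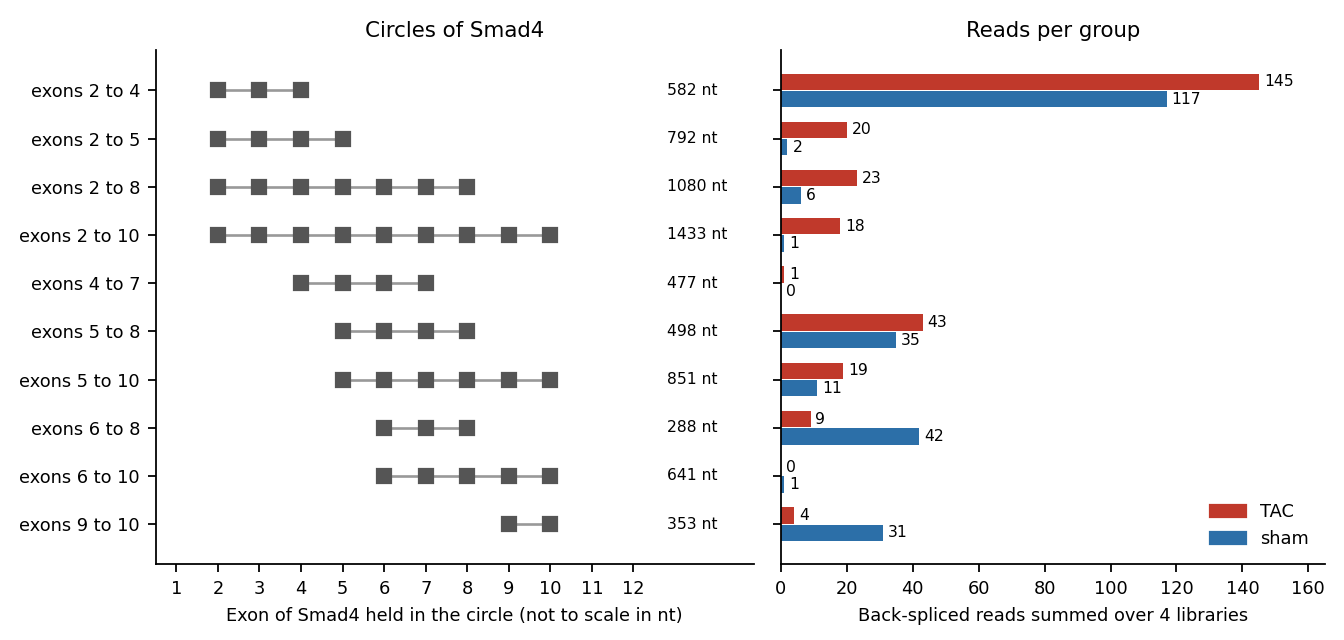
The 10 circles of Smad4, with the exons each holds and its spliced length in nt (left) and its back-spliced reads summed over the 4 libraries of each group (right; TAC red above sham blue; libraries differ in depth). Exons 2 to 10 and 2 to 5 held 18 and 20 reads in TAC hearts and 1 and 2 in sham hearts, while exons 6 to 8 held 9 in TAC and 42 in sham hearts.

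Smad1, a receptor Smad of the BMP branch, had 7 circles, and exon 2 alone (581 nt, with the start codon) held 78.0% of its reads. That circle reached 9.67, 0, 15.4 and 15.9 normalised reads in TAC replicates 1 to 4, against 6.07, 4.54, 1.66 and 5.25 in sham replicates 1 to 4. Apart from the 0 of TAC replicate 2, every TAC library was above every sham library. Over 8 libraries limma gave 0.17 ± 1.51 (SE); in the 6 deep libraries it gave 1.77 ± 0.58 with Benjamini-Hochberg adjusted p = 0.0254, and 0.56 ± 0.57 with adjusted p = 0.617 without the length trend. The host sum averaged 13.7 ± 10.2 in TAC hearts and 5.74 ± 1.21 in sham hearts (SD, n = 4 each), with a limma value of -0.02 ± 1.41 over 8 libraries and 1.51 ± 0.45 (adjusted p = 0.0147) over the 6 deep ones. Neither host value was corrected for circle length.

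The other Smads were rare. Smad5, also of the BMP branch, held 2, 0, 2 and 7 reads in TAC replicates 1 to 4 and 3, 0, 0 and 0 in sham replicates 1 to 4. Smad2 held 8 reads in TAC hearts and 6 in sham hearts. Smad3 held 5 in TAC hearts and 14 in sham hearts, of which 12 were the exons 2 to 4 circle in sham replicate 4. No circle of the inhibitory Smads Smad6 and Smad7, nor of Smad9, was in the table. Among the 25 Smad circles 52.0% started at exon 2 and 44.0% held the start codon, against 23.1% and 10.3% of all exonic circles in the table.

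ADAM proteases cut membrane proteins at the cell surface, and Adam10 is known for shedding Notch receptors and cadherins. It gave the 1 circle of the set that edgeR called. Exons 2 to 4 of Adam10 (429 nt, coding) held 0, 0, 2 and 13 reads in TAC replicates 1 to 4, against 50, 2, 8 and 53 in sham replicates 1 to 4. In normalised reads that was 0, 0, 2.06 and 8.27 in TAC hearts and 19.0, 9.09, 6.62 and 10.3 in sham hearts. TAC replicates 1 and 3 were below every sham library. TAC replicate 4 lay above sham replicate 3, so the groups overlapped at that pair. The 0 of TAC replicate 2 carries little information, as 3 reads there are worth 17.3 normalised reads, and sham replicate 2 rested on 2 reads. The circle averaged 2.58 ± 3.91 in TAC hearts and 11.2 ± 5.37 in sham hearts (SD, n = 4 each). edgeR's quasi-likelihood test gave a log2 fold change of -2.06 ± 0.75 (SE) with Benjamini-Hochberg adjusted p = 0.0493, and limma gave -3.53 ± 1.57 with adjusted p = 0.834 over 8 libraries.

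With the length trend removed, the limma value of this circle was -3.75 ± 1.17 (adjusted p = 0.497) over 8 libraries and -3.35 ± 0.75 (Benjamini-Hochberg adjusted p = 0.00152) over the 6 deep ones, where TAC hearts averaged 3.44 ± 4.30 and sham hearts 11.97 ± 6.33 (SD, n = 3 each). The edgeR call was close to its threshold. Leaving out any single library other than sham replicate 2 ended it, with adjusted p between 0.0797 and 0.460. Without both shallow libraries the adjusted p was 0.0646. Over 8 libraries, edgeR with RLE factors gave -1.79 ± 0.77 (adjusted p = 0.118), and DESeq2 gave -1.87 ± 1.04 (adjusted p = 0.323). In all of these fits the value was negative. The 13 other Adam10 circles, summed, reached 3.72, 0, 5.15 and 8.90 normalised reads in TAC replicates 1 to 4 and 1.52, 4.54, 0.828 and 4.09 in sham replicates 1 to 4. They averaged 4.44 ± 3.68 in TAC hearts and 2.74 ± 1.85 in sham hearts (SD, n = 4 each), in overlapping groups. This sum joins short and long circles. Exons 2 to 3 (270 nt) held 0 reads in TAC hearts and 7 in sham hearts. Exons 3 to 4 (278 nt) held 2 and 6, and exons 5 to 7 (347 nt) 2 and 7. Sham replicate 4 gave 6 reads of each. Exons 5 to 6 (254 nt) held 2 and 0, and exons 2 to 8 (960 nt) and 2 to 14 (1973 nt) each held 3 and 0. The host sum, at 7.02 ± 7.38 in TAC hearts and 14.0 ± 5.33 in sham hearts, had an edgeR value of -1.14 ± 0.62 (adjusted p = 0.250) and a limma value of -2.09 ± 1.37. Whether the 1 circle differed from the other 13 in its change was not tested.

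**Figure D5:**
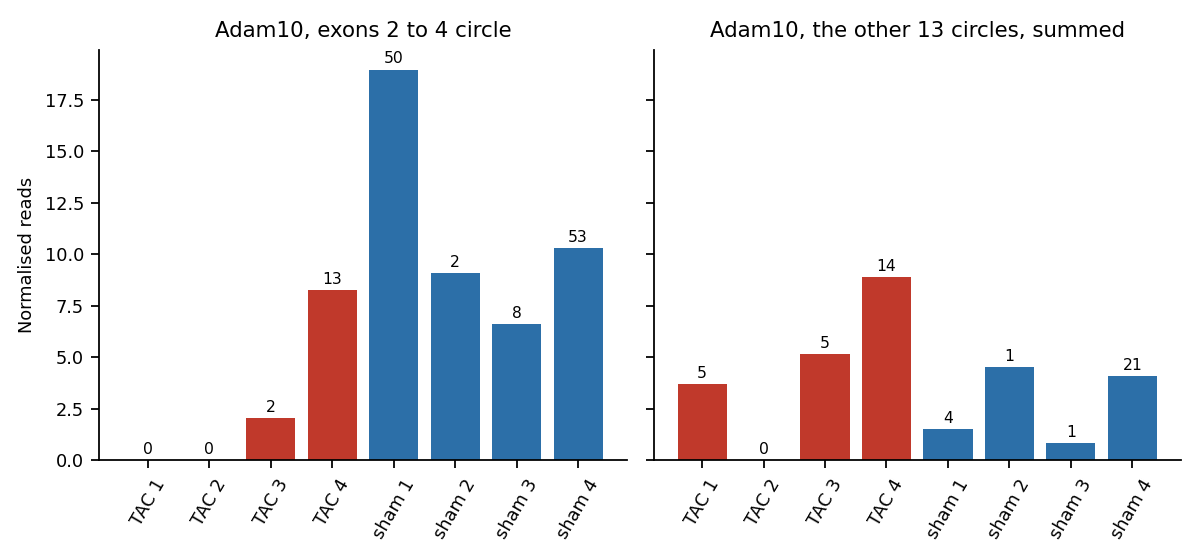
Normalised reads of the Adam10 exons 2 to 4 circle (left) and of the other 13 Adam10 circles summed (right) in each library, TAC in red and sham in blue, with the number of reads above each bar. The exons 2 to 4 circle reaches at most 8.27 in TAC hearts and at least 6.62 in sham hearts, while the other circles reach 8.90 in TAC and at most 4.54 in sham hearts. The other circles run from 254 to 1973 nt, and their sum is not corrected for length.

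The other ADAM hosts overlapped between groups. Adam9 had 48 of its 53 reads in exons 12 to 14, with 10, 0, 5 and 8 in TAC replicates 1 to 4 and 4, 1, 7 and 13 in sham replicates 1 to 4. Adam19, expressed in the developing heart, held 13 reads in TAC hearts and 49 in sham hearts, 31 of these in sham replicate 4. Adam17, the main sheddase of tumour necrosis factor, held 12 in each group. Adam12 held 2, 0, 2 and 2 reads in TAC replicates 1 to 4 and none in sham hearts, and with 0 in TAC replicate 2 and 6 reads in all it was not tested. Adam22 had 10 reads in each group, which averaged 2.14 ± 2.17 normalised reads in TAC hearts and 0.579 ± 0.743 in sham hearts. Adam32 had 5 reads in all. Summed, the ADAM family averaged 20.9 ± 14.8 in TAC hearts and 23.0 ± 5.74 in sham hearts (SD, n = 4 each).

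ADAMTS genes encode secreted proteases of the matrix and, under the name Adamtsl, related proteins without a protease domain. The family sum was 37.2, 5.77, 37.1 and 35.0 normalised reads in TAC replicates 1 to 4, against 18.6, 4.54, 14.1 and 11.9 in sham replicates 1 to 4. The 3 deep TAC libraries lay within 2.20 of each other and above all sham libraries, and each shallow library, at 1 read, was the lowest of its group. Means were 28.7 ± 15.3 in TAC hearts and 12.3 ± 5.86 in sham hearts (SD, n = 4 each), or 36.4 ± 1.24 and 14.8 ± 3.42 over the 3 deep libraries of each group. No test was made of family sums.

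Adamts6, with 24 circles from 115 reads, was the most divided host of the set, and its largest circle, exons 11 to 14, held 20% of its reads. The host sum was 12.6, 0, 15.4 and 14.0 in TAC replicates 1 to 4, against 8.34, 0, 4.14 and 6.62 in sham replicates 1 to 4. Apart from the 0 of TAC replicate 2, TAC libraries were higher, and limma in the 6 deep libraries gave adjusted p = 0.0865. Its 4 circles that end at exon 14 start at exons 8, 10, 11 and 12 and held 4, 16, 23 and 13 reads; the junctions of the last 3 are given above.

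Adamts9, which cuts versican, held 26 reads in TAC hearts and 5 in sham hearts. Its host sum was 5.95, 0, 6.18 and 7.63 normalised reads in TAC replicates 1 to 4, against 1.90, 0, 0 and 0 in sham replicates 1 to 4. All sham reads came from replicate 1, and the groups overlapped only through the 0 of TAC replicate 2. limma gave 2.98 ± 1.504 (SE, unadjusted p = 0.0477) with Benjamini-Hochberg adjusted p = 0.9995 over 8 libraries and 3.97 ± 1.11 with adjusted p = 0.00944 over the 6 deep ones. Its exons 2 to 6 circle (679 nt), called in the 6 deep libraries at 3.62 ± 1.21 (adjusted p = 0.0295), had 2.13 ± 1.16 (adjusted p = 0.2998) without the length trend. Adamtsl2, which binds Ltbp1 and fibrillin microfibrils, held 5, 0, 5 and 5 reads in TAC replicates 1 to 4, against 0, 0, 2 and 0 in sham replicates 1 to 4, with adjusted p = 0.0584 in the 6 deep libraries. Adamts7 had 13 reads in each group, with 1, 0, 5 and 3 of the TAC reads and 4, 1, 1 and 0 of the sham reads in its exons 2 to 4 circle, and Adamts17 had 5 in TAC and 12 in sham hearts. Adamts10 had 5 in TAC hearts and 17 in sham hearts, all 17 in sham replicate 4.

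The 17 collagen names included fibril collagens, the basement membrane collagen IV chains and Col4a3bp. Collagen IV was the part with reads: Col4a2 held 24 in TAC hearts and 20 in sham hearts. Its host sum was 8.18, 0, 5.15 and 5.09 in TAC replicates 1 to 4, against 1.52, 0, 3.31 and 2.33 in sham replicates 1 to 4, with the 0 of TAC replicate 2 making the groups overlap. The exons 28 to 29 circle held 1, 0, 2 and 2 reads in TAC hearts and 4, 0, 4 and 12 in sham hearts. An intronic circle of intron 17 of Col4a2 (685 nt) held 7, 0, 1 and 5 reads in TAC replicates 1 to 4 and none in sham hearts, where the depth allowed 0.584 to 2.48 normalised reads in the deep libraries. It was seen in 3 libraries and was not tested.

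Circles made of intron sequence were more frequent among collagens, at 22.8% (13 of 57), than in the whole set (7.72%) or the table (4.84%). Fibrillins, at 22.2% (2 of 9), and laminins, at 12.5% (3 of 24), were above the table too. Several intronic circles of collagens came from 1 library. The only circle of Col1a1 (intron 11, 10 reads) and the only circle of Col1a2 (intron 46, 9 reads), the chains of the main fibril collagen of scar, were seen in sham replicate 4 alone, as were circles of intron 42 of Col4a4 with 8 and 6 reads. Those 2 Col4a4 circles share 1 end and differ by 11 bases in length. Col4a1, the partner chain of Col4a2, held 1, 1, 1 and 2 reads in TAC replicates 1 to 4 and 4, 0, 1 and 0 in sham replicates 1 to 4, over 9 circles. Col3a1 held 1 read in TAC hearts and 3 in sham hearts. Col5a1, a fibril collagen that starts fibril assembly, held 6, 0, 0 and 3 reads in TAC replicates 1 to 4 and none in sham hearts. The family averaged 12.7 ± 5.90 in TAC hearts and 8.21 ± 3.06 in sham hearts (SD, n = 4 each), in overlapping groups, and 11.8 ± 5.86 and 7.97 ± 2.97 without Col4a3bp.

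Laminins join collagen IV in basement membranes. Lamc1, the gamma chain of most laminins, held 48 of the family's 91 reads, 37 of them in exons 17 to 18, with 6, 1, 1 and 3 in TAC replicates 1 to 4 and 5, 0, 2 and 19 in sham replicates 1 to 4. Lamb2 held 3 reads in TAC hearts and 17 in sham hearts, 16 of these in replicate 4, and Lama3 had 9 of its 10 reads there too. Lama4, a laminin chain of vessel walls, held 5 reads in TAC hearts and 1 in sham hearts. In normalised reads these averaged 0.849 ± 0.995 and 1.14 ± 2.27 (SD, n = 4 each), as the sham read fell in the shallow replicate 2. The family averaged 7.49 ± 3.07 in TAC hearts and 4.87 ± 3.12 in sham hearts (SD, n = 4 each), with overlap. Lama2, left out by the rule, had 46 circles with 64 reads in TAC hearts and 142 in sham hearts. Fibulins, which bridge elastic fibres and basement membranes, held 7, 0, 2 and 4 reads in TAC replicates 1 to 4 against 0, 0, 0 and 7 in sham replicates 1 to 4: all sham reads were of Fbln1 in replicate 4, and Fbln2 had 6 reads, all in TAC hearts. Loxl1, an enzyme of elastin cross-linking, held 1 read in TAC and 2 in sham hearts.

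In build, the exonic circles of the set were somewhat longer and richer in GC than those of the table, with a median spliced length of 576.5 nt against 502 nt and a median GC content of 52.3% against 48.3%. Collagen circles were at 59.5% GC and ADAM circles at 46.9%. Fewer started at exon 2 (17.2% against 23.1%) and fewer held a start codon (7.30% against 10.3%). Families differed in this: Smads (52.0% and 44.0%) and fibulins (42.9% and 14.3%, of 7 circles) were above the table in both shares, and Tgfb genes (23.5%) in the first. A splice site was shared with another circle of the same host by 62.9% of the set and 71.8% of all exonic circles. Among circles wholly in coding sequence, 39.2% had a length that is a multiple of 3, against 38.7% in the table; the share was 60.5% in collagens, 59.1% in Ltbp genes and 71.4% (5 of 7) in fibrillins, genes whose exons often encode whole repeats. Circles of 1 host share its exons, so these shares are descriptions.

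Of 125 further names of matrix and TGF-beta genes, 73 had a circle and 33 host sums were tested. None of the 33 passed limma, where 0.0337% of all hosts did, and 1 had an unadjusted p under 0.05 (90 of all 2967 hosts did). None of 13 passed edgeR, where 8.24% of all hosts did. The median log2 fold change was 0.11, with 17 positive and 16 negative values. Mmp15, a membrane-bound matrix metalloproteinase, held most reads, with 29, 12, 21 and 46 in TAC replicates 1 to 4 and 123, 5, 115 and 257 in sham replicates 1 to 4. Acvr2a, an activin receptor, followed with 30, 0, 13 and 22 in TAC hearts and 89, 3, 25 and 137 in sham hearts. Sulf1, which edits heparan sulphate, was the 1 with a small unadjusted p, at 5, 0, 3 and 6 reads in TAC hearts and 1, 0, 0 and 0 in sham hearts.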

How the data were processed

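The deposited table lists circles with 1 value per library. Per the labels' protocols, a kit for circRNA was used and libraries were made by a company; the molecule is labelled total RNA. Tools named in the submitters' processing notes, with no version, are DESeq2, HISAT2 and StringTie, and the build is mm10. How circles were called, RNA depleted and reads stranded is not stated, so antisense and overlapping genes cannot be separated. The deposited unit is a normalised signal, the authors' reads divided by a library factor: all values (100%) were whole multiples of the smallest of their library within 0.001, and whole reads were recovered from them. The table held 0 value columns without a sample.

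Values were tested with limma (3.58.1, intensity trend) after adding 0.195, the smallest positive value of the table, and taking log2, for circles or host sums above 0 in at least 4 of 8 libraries. Changes of rare circles depend on the value added and on the test. Adam10 exons 2 to 4 was -3.53 in this fit, -2.31 with a pseudocount of 1 and -2.06 by edgeR. Smad4 exons 2 to 10 was 3.005, against 1.70 with a pseudocount of 1 and 4.07 by DESeq2. In the main fits over 8 libraries, the SE of limma follows the trend over all features rather than a feature's own spread. Where the length trend was removed, and in the host fit of the 6 deep libraries, a feature's own spread also enters. edgeR (4.0.16, quasi-likelihood, TMM, robust, minimum count 5, minimum total 15) was run on recovered reads as an alternative and called 94 of 717 circles and 84 of 1020 hosts; DESeq2 (1.42.0) was another. Benjamini-Hochberg adjustment ran over the whole table (threshold 0.05). Tests were tried on simulated data. Exons and lengths come from GENCODE M21. Replicates are separate mice numbered in accession order. Named are all called features, the 20 circles and 25 hosts with the largest means, the leading host of each family, every Tgfb and Smad host and the circles seen in at least 6 libraries; other members were named after their values were seen. Members, families and lists were chosen with earlier results of these data known.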

Additional observations from a re-analysis of the deposited data

Results flagged for a closer look

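Within each group of 4 libraries, 1 library stood far from the other 3, by Dixon's criterion, in 9 of 46 groups examined. For continuous, normally spread values chance gives about 1 in 20. That rate does not hold for these sparse counts, as a group with reads in 1 library only always meets the criterion. The shallow libraries account for 3 of the 9. In TAC replicate 2 the ADAMTS sum was 5.77 normalised reads, far below the 35.0 to 37.2 of the other TAC libraries. In sham replicate 2, 33.3% of matrix and TGF-beta reads came from circles over 700 nt, against 5.40% to 9.03% in the other sham libraries, and the Smad4 exons 5 to 8 circle stood at 22.7 normalised reads, against 1.90 to 4.28.

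In sham replicate 3 the Smad4 exons 2 to 4 circle, at 24.8, was far above the other sham libraries (9.09 to 11.3). The other 5 are groups in which 1 library had reads and the other 3 had none: Loxl1 in TAC replicate 4 (0.636) and in sham replicate 3 (1.66), fibulins in sham replicate 4 (1.36), Smad4 exons 2 to 10 in sham replicate 1 (0.379) and the Adamts9 host sum in sham replicate 1 (1.90). Loxl1 in TAC replicate 4 and Smad4 exons 2 to 10 in sham replicate 1 each rest on 1 read.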

How the results depend on the processing

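Of all circles, limma called 1; the count was 0 without the trend, with TMM rescaling and with the length trend removed, 94 by edgeR, 82 with RLE factors, 29 by DESeq2, 407 without both shallow libraries, 205 with the length trend removed as well, and 0 to 41 leaving out 1 library each. Of all hosts it called 1; this was 3 with at least 10 reads in total, 0 without the trend and with TMM rescaling, 84 by edgeR, 100 with RLE factors, 33 by DESeq2, 357 without both shallow libraries, and 1 to 28 leaving out 1 each. Member circles called numbered 0, but 1 by edgeR, 8 without both shallow libraries and 1 with the length trend also removed. The edgeR count of member circles was 0 to 1 leaving out 1 each, and the circle changed: Adam10 exons 2 to 4 (lower) without sham replicate 2, but Smad4 exons 2 to 5 (higher, 3.81, adjusted p = 0.0286) without TAC replicate 2 and Smad4 exons 5 to 8 (higher, 1.73, adjusted p = 0.0268) without both shallow libraries. Member hosts called numbered 0, but 3 without both shallow libraries; by edgeR, 1 without both and 0 to 1 leaving out 1 each. The cause was not tested.

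Direction reversed for 6 single features. Smad4 exons 2 to 4 was 0.15 with a pseudocount of 1, 0.88 by edgeR, 1.15 with RLE factors, 1.15 by DESeq2, 1.36 without both shallow libraries, 0.15 with the length trend also removed and -1.16 to 1.52 leaving out 1 each. In the same order Smad4 exons 5 to 8 was 0.12, 0.93, 1.12, 0.72, 1.94, 1.01 and -0.88 to 1.201. Smad1 exon 2 was -0.52 with the length trend removed and -0.42 to 1.70 leaving out 1 each. The Smad4 host sum was 0.56 by edgeR, 0.62 with RLE factors, 0.57 by DESeq2, 1.43 without both shallow libraries and -1.84 to 1.14 leaving out 1 each. The Ltbp1 host sum was 0.094 without both and -0.42 to 0.093 leaving out 1 each; the Smad1 host sum was 0.43 with a pseudocount of 1, 0.96 by edgeR, 1.09 with RLE factors, 1.08 by DESeq2, 1.51 without both and -0.70 to 1.61. TMM rescaling moved the median host by -0.18. The Smad family difference (TAC minus sham) was 15.6 to 57.2 leaving out 1 each and the ADAMTS one 13.7 to 24.1; ADAM, Ltbp, Tgfb, fibrillin and Loxl1 differences changed sign. No paired analysis was possible because the labels give no replicate numbers that the groups share.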
